A study of Saccharomyces cerevisiae with 46 samples.

Results

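The strains in this comparison are the 2 anchor-away strains of the study, in which Spt4 or Spt5 can be drawn out of the nucleus by rapamycin, grown here with the solvent DMSO only. They were set against wild-type (WT) yeast to describe how they differ without rapamycin, where the engineered background, the DMSO and the experiment differ together. The members are 2 of the 10 RNA-seq libraries, 1 from the Spt4-FRB strain and 1 from the Spt5-FRB strain, and the 2 WT libraries are their reference. Both DMSO anchor-away cultures were BY4741 derivatives with the *tor1-1* allele, a deletion of *FPR1*, RPL13-2xFKBP12 and RPB3-3xFLAG, and had received DMSO for 120 min. One carried SPT4-FRB-eGFP and the other SPT5-FRB-eGFP, so that each strain was measured in a single library. The WT cultures were untreated BY4741 with RPB3-3xFLAG, which all 4 cultures share, and were labelled replicates 1 and 2. The study's strain list adds a nourseothricin marker at RPL13 and a hygromycin marker at the FRB fusion for the anchor-away strains, and a His3MX6 marker at RPB3 for WT. All cultures grew to mid-log density in the rich glucose medium YPD. Total RNA was depleted of large ribosomal RNA and sequenced after a fixed weight of *S. pombe* cells had been mixed in.

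The anchor-away method uses the small molecule rapamycin as a bridge. On one side it binds FKBP12, here fused to a protein of the large ribosomal subunit, and on the other the FRB domain, here fused to Spt4 or Spt5, the partners of a conserved elongation factor that travels with RNA polymerase II. Ribosomal subunits are assembled in the nucleus and leave for the cytoplasm, and in the presence of rapamycin they take the FRB fusion with them. Yeast makes an FKBP12 of its own, the prolyl isomerase Fpr1, which would compete for rapamycin, so *FPR1* is deleted. The *tor1-1* allele makes the growth kinase TORC1 insensitive to the drug. TORC1 itself promotes the making of ribosomes and restrains genes of stress and of poor nitrogen, and prolyl isomerases of this family help proteins to fold.

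The recovered depth was 1866670 reads in the Spt4-FRB DMSO library and 2082274 reads in the Spt5-FRB DMSO library, against 6074207 reads in WT replicate 1 and 2743158 reads in WT replicate 2. The groups come from separate deposited tables with 4835 and 5572 genes. The 4833 genes in both were joined, and the 4689 that averaged 10 rescaled reads or more over the 4 libraries were tested. The loss was one-sided, with 739 genes listed only in the WT table and 2 only in the DMSO table. Those 739 had a median of 55 reads in WT replicate 1, against 368 for the joined genes. Low genes that fell in the DMSO libraries may thus be missing from every count, which was not tested. Rescaled reads are recovered reads divided by a factor per library that sets the median gene equal, so every change is relative to the median gene and not to the *S. pombe* cells. The strain background, the DMSO, the experiment and the table are the same for both DMSO libraries and differ from those of both WT libraries, so these cannot be told apart in any result that follows, and with 1 library a strain the p-values measure only the spread between these 4 libraries. *SPT5*, *TOR1*, *LEU2*, *URA3*, *MET17* and the mitochondrial genome are not analysed here. The 5 *a*-specific genes tested, which mark the mating type of the strain list, were detected in all 4 libraries. The receptor gene *STE2* had 1051 and 1036 rescaled reads in the DMSO libraries and 936 and 1122 in WT. Genes specific to the opposite mating type are not analysed here.

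The DMSO anchor-away cells differed from WT in many genes and by little in most of them. Of 4689 genes tested, 1820 were called (38.8%, limma with Benjamini-Hochberg adjusted p under 0.05). There were 859 called higher (18.3% of genes tested) and 961 called lower (20.5%), and 2208 genes had an unadjusted p under 0.05. The size was modest, since 95.2% of genes lay within 2-fold of WT, and the interquartile range of the log2 fold changes was -0.31 to 0.30. A fold change of 2 or more was reached by 220 called genes, 117 higher and 103 lower. The 2 DMSO libraries lay above both WT libraries for 34.0% of genes and below both for 35.1%. Rescaling to the same total turned the balance to 60.9% higher among the called genes, against 47.2% with the median gene set equal, since it moved the median gene by 0.091 on the log2 scale. The number called was 1049 with DESeq2 and 349 in a fit to all 10 RNA-seq libraries, where 5 groups share 1 estimate of the spread.

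**Figure D1:**
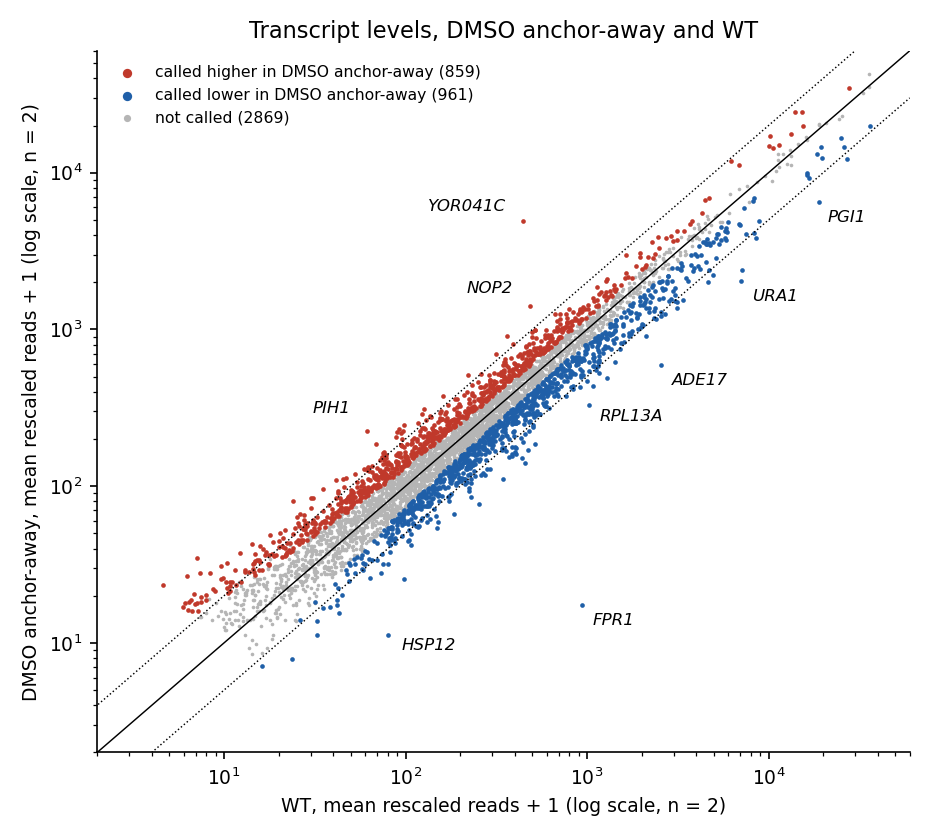
Mean rescaled reads plus 1 of the 2 DMSO anchor-away libraries (vertical, log scale) and the 2 WT libraries (horizontal, log scale) for the 4689 genes tested, with 859 called higher in red, 961 called lower in blue and 2869 not called in grey. The solid line marks equal levels and the dotted lines 2-fold, and *FPR1* and *YOR041C* lie furthest from the line.

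The difference between the groups was wider than that within either of them. For 3214 genes averaging 100 rescaled reads or more, the log2 difference between the group means had an SD over genes of 0.455. The same SD was 0.199 between the 2 DMSO libraries and 0.202 between the 2 WT libraries. Setting a single DMSO library against a single WT library gave SDs of 0.458 to 0.499 in the 4 possible pairs. At this level 99 genes were at least 2-fold apart between the group means, 2 between the DMSO libraries and 3 between the WT libraries. The 2 DMSO libraries, from different strains, were about as far apart by this measure as the 2 WT replicates.

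**Figure D2:**
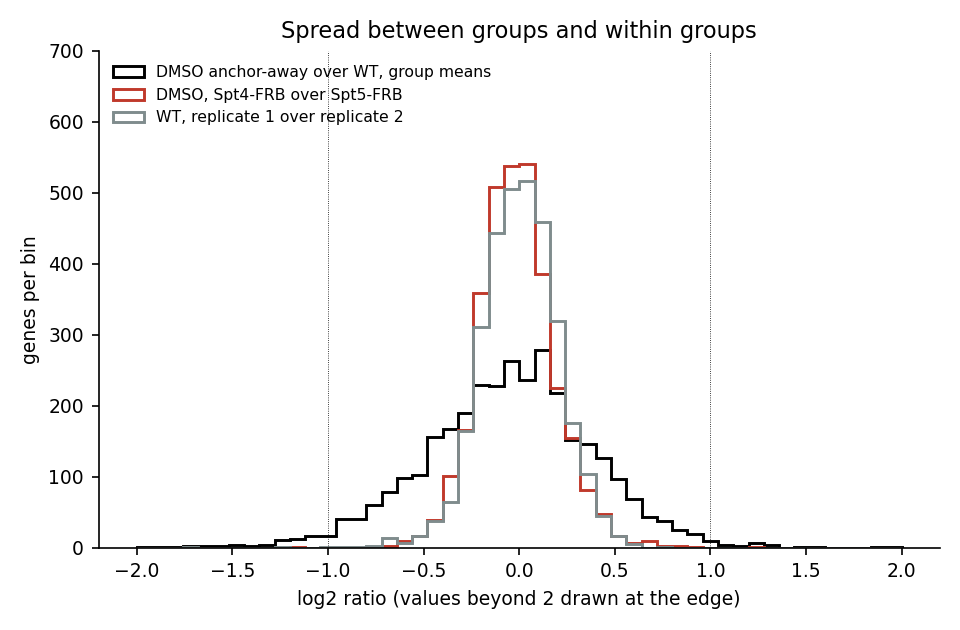
Number of genes (vertical) by log2 ratio (horizontal, bins of equal width) for the 3214 genes that averaged 100 rescaled reads or more, between group means in black, between the DMSO libraries in red and between the WT libraries in grey. The black outline is broader (SD 0.455) than the red (SD 0.199) and the grey (SD 0.202), which overlie each other.

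The engineered loci were examined first. *FPR1* (YNL135C, chromosome XIV of the R64 assembly from 371882 to 372226, minus strand) had 10 and 14 reads in the DMSO libraries, against 1918 and 865 reads in WT. In rescaled reads these were 14.3 and 18.4 in the DMSO libraries and 932 and 942 in WT. The log2 fold change was -5.77 (standard error 0.168, limma adjusted p = 3.54e-29), the largest fall of all genes tested, and ranged from -5.95 to -5.17 over the alternatives. The reads left on the deleted gene were under 20 rescaled reads in each DMSO library. The library labels thus matched the genotype at this gene.

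*RPL13A* (YDL082W, chromosome IV, 308424 to 309388, plus strand), 1 of the 2 genes for the ribosomal protein that anchors the system, had 354 and 299.7 rescaled reads in the DMSO libraries and 1121 and 918 in WT. It fell by 1.64 on the log2 scale (standard error 0.123, limma adjusted p = 7.05e-14). Its paralogue *RPL13B* (YMR142C, chromosome XIII) had 2817 and 3043 rescaled reads in the DMSO libraries and 3249 and 2688 in WT, values that overlapped. Its log2 fold change was -0.01 (standard error 0.107, limma adjusted p = 0.932) and took the opposite sign when the libraries were rescaled to the same total, where it was 0.078. The 2 genes are 92.8% identical over 601 aligned bases, so reads could be split between them in ways that the counting decides. The labels write RPL13 without saying which of the 2 was fused.

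*SPT4* (YGR063C, chromosome VII, 617516 to 617824, minus strand) had 299 rescaled reads in the Spt4-FRB library, where it is fused to FRB, and 405 in the Spt5-FRB library, where it is not. WT had 258 and 272. The log2 fold change was 0.39 (standard error 0.139, limma adjusted p = 0.0229), a call that was lost with DESeq2 (adjusted p = 0.0897). It was 0.61 without the Spt4-FRB library and 0.17 without the Spt5-FRB library. *RPB3* (YIL021W, chromosome IX, 312905 to 313861, plus strand), a subunit of RNA polymerase II tagged in all 4 cultures, had 393 and 513 rescaled reads in the DMSO libraries and 644 and 605 in WT. Its log2 fold change was -0.47 (standard error 0.126, limma adjusted p = 0.00251). The marker gene *LYS2*, of lysine synthesis, had 721 and 871 rescaled reads in the DMSO libraries and 1064 and 904 in WT, with a log2 fold change of -0.31 (limma adjusted p = 0.0345) that was no longer called in the fit to all 10 libraries (adjusted p = 0.381). *HIS3*, of histidine synthesis, had 24.2 and 31.5 rescaled reads in the DMSO libraries and 50.5 and 26.1 in WT, groups that overlapped (log2 fold change -0.38, limma adjusted p = 0.314).

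The immediate neighbours of engineered loci were taken by position, and some were called and others not, beside 38.8% called of all genes tested. Next to *FPR1*, *YNL134C* had 74.1 rescaled reads in the Spt4-FRB library and 31.5 in the Spt5-FRB library, against 145 and 150.3 in WT. Its log2 fold change was -1.59 (standard error 0.228, limma adjusted p = 4.66e-07), and it was -2.20 without the Spt4-FRB library and -0.99 without the Spt5-FRB library. On the other side *EAF7*, a subunit of the NuA4 histone acetyltransferase, had 127 and 147 rescaled reads in the DMSO libraries and 139 and 90.4 in WT (limma adjusted p = 0.21). Beside *RPL13A*, the ribosomal protein gene *RPS16B* had a log2 fold change of -0.38 (limma adjusted p = 0.00307) and *RPP1A*, which encodes a protein of the ribosomal stalk, one of -0.04 (limma adjusted p = 0.815). Beside *SPT5*, *RAD33* had a log2 fold change of -0.05 (limma adjusted p = 0.861) and *MRPL39*, for a mitochondrial ribosomal protein, one of -0.67 (limma adjusted p = 0.00106). *VHT1*, beside *SPT4*, had one of -0.45 (limma adjusted p = 0.0376). Beside *TOR1*, *ARP3* (0.55) and *YAE1* (-0.47) were both called. Neither *TIM44* (-0.25) nor *HIS6* (0.09), beside *RPB3*, was called.

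The largest rise was that of *YOR041C*, a reading frame that has no entry in R64. It had 4793 and 5061 rescaled reads in the DMSO libraries and 426 and 461 in WT, with a log2 fold change of 3.47 (standard error 0.107, limma adjusted p = 1.77e-28). Over the alternatives it ranged from 3.41 to 3.56. Its systematic name places it on the minus strand between *GLO4*, which ends at 407921 on chromosome XV, and *CUE5*, which starts at 408425. The only gene that R64 annotates between them is *SNR9*, a small nucleolar RNA of the H/ACA class, which guide the change of uridine to pseudouridine in ribosomal RNA. *SNR9* lies on the minus strand at chrXV:407948-408134, and its 187 bases are shown because they are the only annotated transcript in that interval, with the last ACA triplet in capitals, 4 bases from the 3′ end.

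SNR9: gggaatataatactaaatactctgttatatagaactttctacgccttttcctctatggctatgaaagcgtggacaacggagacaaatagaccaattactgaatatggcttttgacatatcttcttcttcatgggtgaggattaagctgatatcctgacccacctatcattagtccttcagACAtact

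Whether the reads counted for *YOR041C* came from *SNR9* was not tested. *CUE5*, the next gene on the other strand and a ubiquitin-binding receptor of autophagy, also rose, with 235 and 254 rescaled reads in the DMSO libraries and 107 and 86.1 in WT (log2 fold change 1.34, standard error 0.159, limma adjusted p = 9.96e-09). Protein genes that overlap an annotated snoRNA were examined for comparison. Of the 8 tested, a group chosen after the data were seen, 1 (*NOG2*) was called higher and 2 (*RPL7A* and *RPL7B*) lower, with a median log2 fold change of -0.02. Of 71 reading frames without an entry in R64, also chosen after the data were seen, 14 were called higher (19.7%) and 8 lower (11.3%), with a median of 0.12, beside 18.3% and 20.5% of all genes.

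The largest changes were named among called genes with a mean of at least 50 rescaled reads in 1 group and no overlap between the groups, 12 in each direction. The other large rises fell on several roles. *PIH1* (chromosome VIII, 176965 to 177999, minus strand), a partner of the Hsp90 chaperone in the assembly of small nucleolar RNPs, had 238 and 212 rescaled reads in the DMSO libraries and 60.3 and 59.9 in WT (log2 fold change 1.88, standard error 0.169, limma adjusted p = 1.03e-11). *NOP2* (chromosome XIV, 510540 to 512396, plus strand), the methyltransferase of the large ribosomal RNA, had 1324 and 1501 in the DMSO libraries and 535 and 433 in WT (log2 fold change 1.55, standard error 0.118). In both genes the 2 DMSO libraries lay close together and at more than 2 times either WT library. Genes of chromatin and of RNA polymerase II were among the 12 largest rises. *LGE1*, which works with the ubiquitin ligase of histone H2B, had 79.8 and 80.2 rescaled reads in the DMSO libraries and 26.2 and 19.6 in WT. *DEP1*, a subunit of the Rpd3L deacetylase complex, had 88.4 and 77.5 in the DMSO libraries and 26.7 and 31.6 in WT. *FCP1*, the phosphatase of the polymerase's C-terminal domain, had 169.6 and 201 in the DMSO libraries and 79.7 and 55.6 in WT. Their log2 fold changes were 1.77, 1.48 and 1.46, and in *DEP1* alone of the 3 the higher WT value was that of replicate 2. *HCR1*, a factor of translation initiation, had 837 and 975 rescaled reads in the DMSO libraries and 400.4 and 321 in WT, and the tRNA methyltransferase subunit *TRM8* had 113 and 104 in the DMSO libraries and 52.5 and 28.3 in WT. The remaining rises of the 12, *HMS2*, *APM2* and *YPL247C*, had log2 fold changes of 1.48, 1.43 and 1.34. *HMS2* overlaps the annotated frame *YJR146W*, and their reads are uncertain. The twelfth rise was 1.33 and the next gene outside the rule stood at 1.32.

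**Figure D3:**
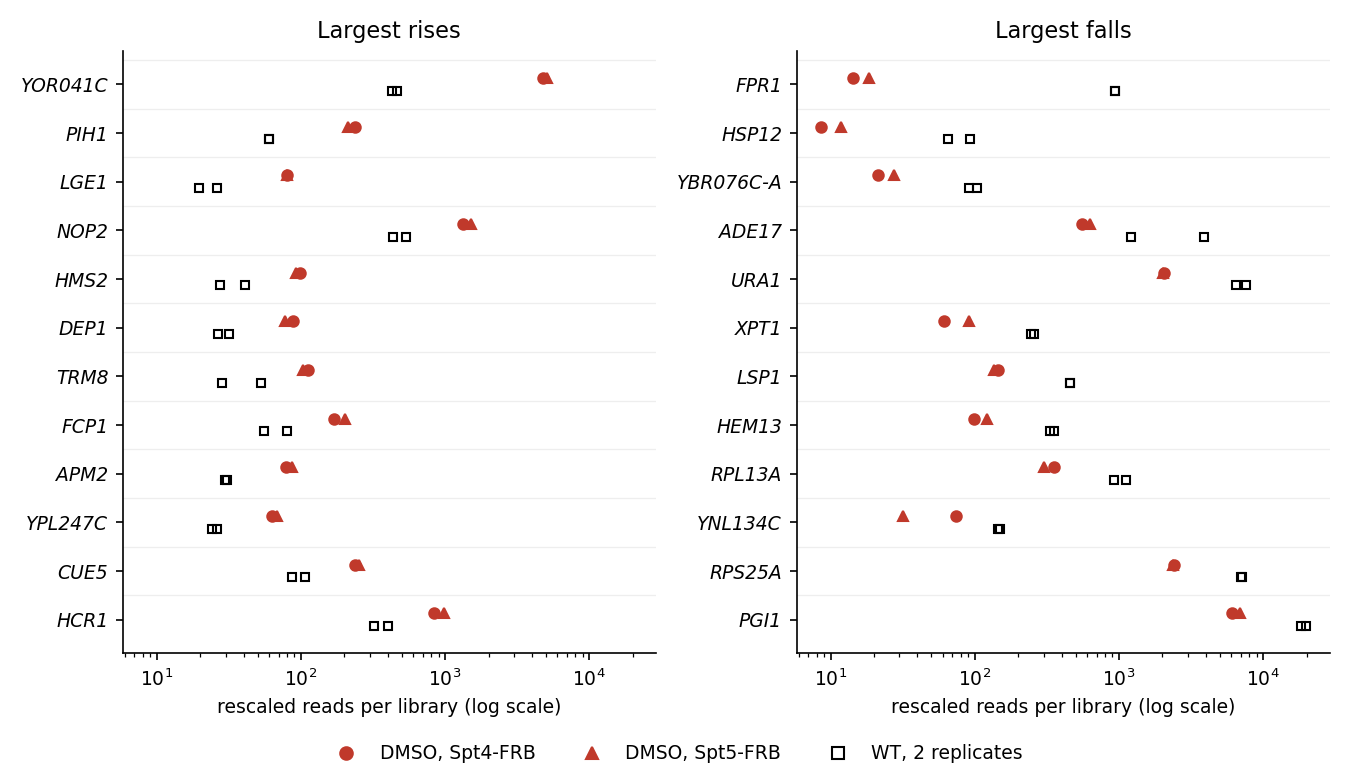
Rescaled reads per library (horizontal, log scale) of the 12 largest rises (left) and the 12 largest falls (right), with the Spt4-FRB DMSO library as red circles, the Spt5-FRB DMSO library as red triangles and the 2 WT replicates as open squares. In each of the 24 genes the red symbols lie on one side of both squares, a condition of the choice, and *ADE17* has the widest gap between its WT replicates.

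Among the largest falls, several genes were of metabolism. *URA1* (chromosome XI, 25215 to 26159, plus strand), the dihydroorotate dehydrogenase of pyrimidine synthesis, had 2043 and 2007 rescaled reads in the DMSO libraries and 7587 and 6503 in WT (log2 fold change -1.79, standard error 0.105, limma adjusted p = 1.49e-17). *XPT1*, which salvages xanthine, had 61.3 and 90.7 in the DMSO libraries and 245 and 258 in WT (log2 fold change -1.74). *HEM13*, which makes protoporphyrinogen in haem synthesis and needs oxygen, had 98.4 and 121 in the DMSO libraries and 355 and 333 in WT (log2 fold change -1.65). The DMSO libraries were close to each other in *URA1* and further apart in *XPT1*, and all lay well below WT. *LSP1*, a core protein of eisosomes, the furrows of the plasma membrane, had 144 and 135 rescaled reads in the DMSO libraries and 454 and 459 in WT (log2 fold change -1.70). *PGI1* (chromosome II, 612236 to 613900, minus strand), the isomerase of glucose 6-phosphate, had 6101 and 6871 in the DMSO libraries and 18214 and 19671 in WT (log2 fold change -1.55). *RPS25A*, for a protein of the small ribosomal subunit, had 2389 and 2371 in the DMSO libraries and 7163 and 7075 in WT (log2 fold change -1.58). It is 92% identical to *RPS25B*. *YBR076C-A*, a frame of no known role, had 21.4 and 27.6 in the DMSO libraries and 104 and 91.5 in WT (log2 fold change -1.96). The twelfth fall was -1.55 and the next gene outside the rule -1.52.

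The genes were then described by lists of textbook membership. For all genes tested the median log2 fold change was 0.00, with 18.3% called higher and 20.5% called lower, and each list is read beside these values. Membership was written with earlier results of these data known. Of 131 named genes called with limma, 99 could be tested in all 13 alternatives, and 59 of these were called in each, since a mean of 100 or more leaves out low genes. The fit to all 10 libraries lost 51. The lists with the highest medians were those of cell separation, elongation factors, FKBP proteins and TORC1, and pheromone response. Those with the lowest were the TCA cycle, glycolysis and fermentation, purine synthesis and Msn2/Msn4 stress genes.

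**Figure D4:**
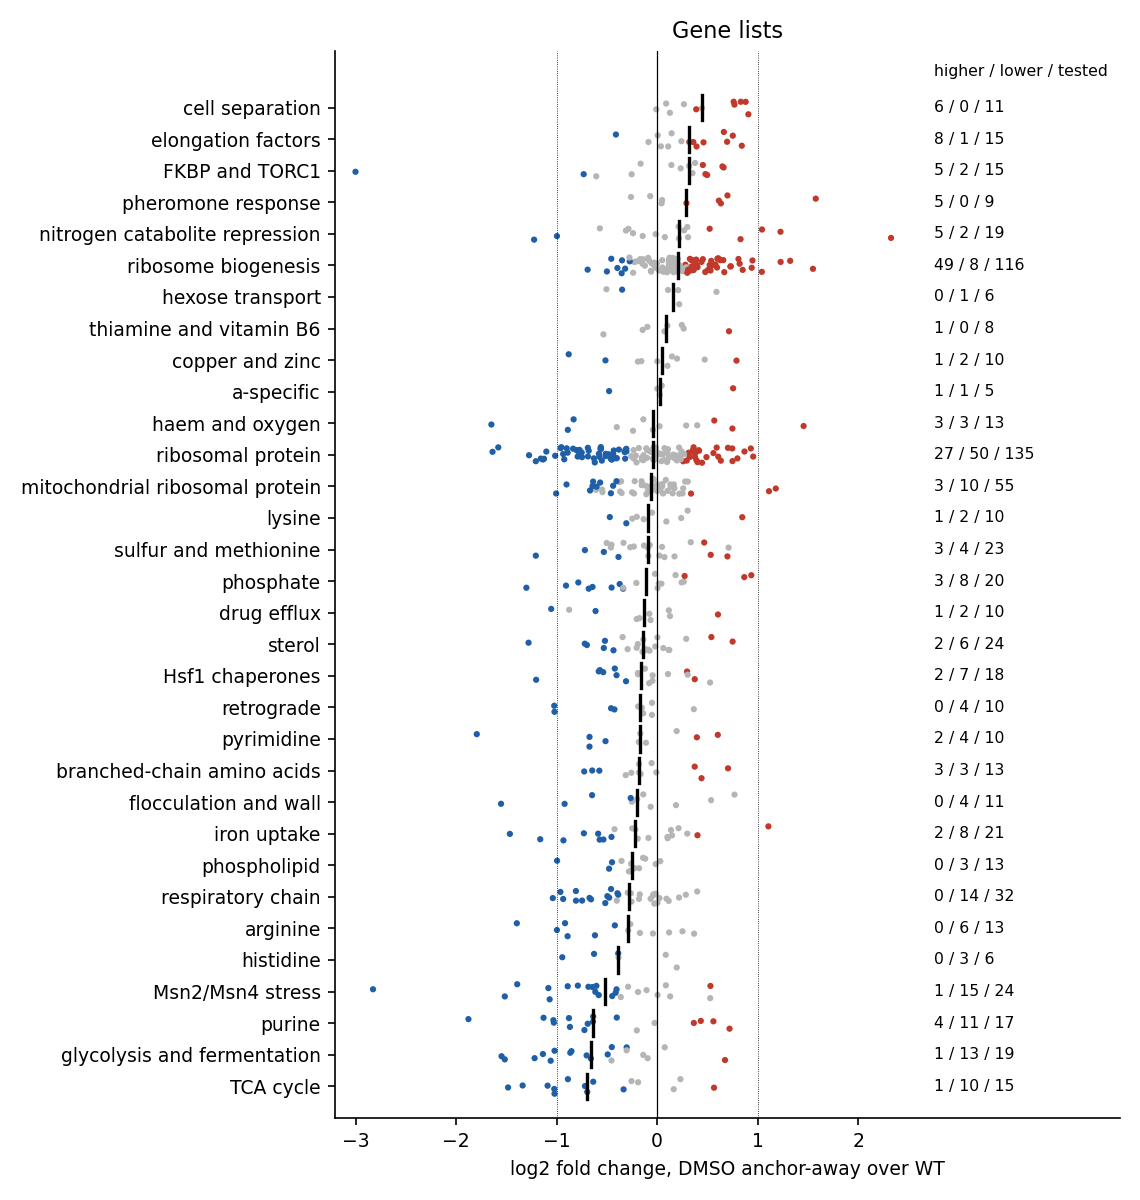
Log2 fold change of DMSO anchor-away over WT (horizontal) for the tested members of each list with 5 or more (rows), as points in red where called higher, blue where called lower and grey where not called, with a black bar at each median and the counts at the right. *FPR1*, at -5.77, is drawn at the left edge, and the medians run from -0.70 for the TCA cycle to 0.45 for cell separation.

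Genes of ribosome biogenesis, the nucleolar factors that process ribosomal RNA and assemble subunits, were called higher in 49 of 116 tested (42.2%) and lower in 8, with a median of 0.20. Their largest rises were *NOP2*, given above, *NOP8*, *REI1* and *NOP1*. *NOP8*, which acts in 60S assembly, had 208 and 249.7 rescaled reads in the DMSO libraries and 84.6 and 97.0 in WT (log2 fold change 1.32, standard error 0.161). *REI1*, a cytoplasmic factor of 60S maturation, had 393 and 356 in the DMSO libraries and 176 and 144 in WT (log2 fold change 1.23, standard error 0.141), and overlaps the annotated frame *SLM6*. *NOP1*, the methyltransferase fibrillarin, had 746 and 863 in the DMSO libraries and 423 and 358 in WT (log2 fold change 1.04, standard error 0.122). The count depended on 1 library. Without WT replicate 2 it was 28 higher and 12 lower with a median of 0.11, and without WT replicate 1 it was 51 higher and 2 lower.

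Many genes of this class carry the PAC element, GATGAG, upstream. The window from 300 to 51 bases before the start codon of *NOP2* (RefSeq, R64, chrXIV:510240-510489, plus strand) is shown because *NOP2* had the largest rise of the class, with PAC or its reverse complement CTCATC in capitals.

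NOP2: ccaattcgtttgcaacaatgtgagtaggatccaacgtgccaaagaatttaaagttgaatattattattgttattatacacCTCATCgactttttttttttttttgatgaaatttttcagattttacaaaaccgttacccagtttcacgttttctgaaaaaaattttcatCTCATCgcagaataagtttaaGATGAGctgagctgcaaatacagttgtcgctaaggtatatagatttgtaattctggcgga

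The element began 220, 131 and 110 bases upstream. The same window held it in 99 of the 116 genes tested of the class (85.3%), in 44 of the 49 called higher (89.8%), and in 17.7% of the 6020 protein-coding genes of R64. Among all genes tested it was present in 25.7% of those called higher and in 14.3% of those called lower. A match describes the letters only, and the class is one for which the element is known.

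Ribosomal protein genes themselves were called in both directions. Of 135 tested, 27 were called higher (20.0%) and 50 lower (37.0%), with a median of -0.04 that became 0.05 with the libraries rescaled to the same total, where 41 were higher and 45 lower. Calls also varied with level, and of the 586 genes in the highest eighth by mean rescaled reads 103 were called higher and 197 lower. The lists were not matched to genes of the same level. Among the large-subunit genes 14 of 74 were higher and 30 lower, and among the small-subunit genes 11 of 55 were higher and 19 lower. Besides *RPL13A* and *RPS25A*, *RPL4B* had 125 and 181 rescaled reads in the DMSO libraries and 423 and 317 in WT (log2 fold change -1.27). Most of these proteins are made from 2 near-identical genes. In 57 such pairs with both members tested, both were called lower in 11 and both higher in 4, while in 5 the members were called in opposite directions. Only 1 member was called in 27 pairs, and neither in 10. The pair furthest apart, named after its values were seen, was *RPP2A* and *RPP2B*, which encode proteins of the ribosomal stalk. *RPP2A* had 842 and 697 rescaled reads in the DMSO libraries and 489.9 and 425 in WT (log2 fold change 0.75, limma adjusted p = 4.83e-06). *RPP2B* had 1592 and 1504 in the DMSO libraries and 3466 and 3289 in WT (log2 fold change -1.13, limma adjusted p = 2.2e-11). How reads that match both copies were counted is not given in the sources used here.

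Glycolysis, the TCA cycle and the respiratory chain were counted as separate lists. Of 19 tested genes of glycolysis and fermentation 13 were called lower (68.4%), with a median of -0.66. The largest falls were in its upper steps. *HXK2*, the main hexokinase on glucose, had 1991 and 2006 rescaled reads in the DMSO libraries and 4964 and 4363 in WT (log2 fold change -1.22, standard error 0.105). *FBA1*, the aldolase, had 12382 and 12211 in the DMSO libraries and 27644 and 26429.6 in WT (log2 fold change -1.14, standard error 0.106). *GLK1*, the glucokinase, had 123 and 176 in the DMSO libraries and 329 and 540.4 in WT (log2 fold change -1.52, standard error 0.166), with a WT spread wider than that of *HXK2*, and it overlaps the annotated frame *YCL042W*. The only member called higher was *PDC1*, named for that reason, the main pyruvate decarboxylase of fermentation, with 25349.7 and 23281 rescaled reads in the DMSO libraries and 14862 and 15591 in WT (log2 fold change 0.67, standard error 0.107, limma adjusted p = 3e-06).

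Of 15 genes of the TCA cycle 10 were called lower (66.7%) and 1 higher, with a median of -0.70, the lowest of the lists of 5 or more. *MDH1*, the mitochondrial malate dehydrogenase, had 167 and 169.5 rescaled reads in the DMSO libraries and 472 and 472 in WT (log2 fold change -1.48, standard error 0.133). *CIT1*, the citrate synthase at the entry of the cycle, had 178 and 225 in the DMSO libraries and 381 and 479 in WT (log2 fold change -1.09). *SDH2*, a subunit of succinate dehydrogenase, had 18.5 and 31.5 in the DMSO libraries and 57.3 and 68.6 in WT (log2 fold change -1.34), while *SDH1*, another subunit of the same enzyme, was the one called higher and is named for that reason, with 68.4 and 67.0 in the DMSO libraries and 48.6 and 42.5 in WT (log2 fold change 0.57, limma adjusted p = 0.0371). With either WT library left out no member was called higher. Of 32 genes of the respiratory chain 14 were called lower (43.8%) and 0 higher with limma, and 12 lower and 0 higher with DESeq2, beside 2 higher at an unadjusted p under 0.05, and the median was -0.28. *NDI1*, the internal NADH dehydrogenase, had 42.8 and 28.9 rescaled reads in the DMSO libraries and 67.5 and 79.5 in WT, and the cytochrome oxidase subunit *COX4* had 311 and 318 in the DMSO libraries and 577 and 653 in WT (log2 fold changes -1.04 and -0.96). Mitochondrial ribosomal protein genes were called higher in 3 and lower in 10 of 55, with a median of -0.06, and without WT replicate 2 the higher count was 0 with limma and the lower 7.

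Genes that the stress factors Msn2 and Msn4 are known to activate were called lower in 15 of 24 tested (62.5%) and higher in 1, with a median of -0.51. Without WT replicate 2 the count was 9 lower, as with DESeq2, and without WT replicate 1 it was 15 lower. The single member called higher, *RTN2*, a reticulon of the endoplasmic reticulum, was not called in either. *HSP12* (chromosome VI, 107256 to 107585, plus strand), which encodes a small membrane-binding heat shock protein and had the largest fall after *FPR1*, had 8.55 and 11.8 rescaled reads in the DMSO libraries and 91.8 and 65.4 in WT (log2 fold change -2.83, standard error 0.295, limma adjusted p = 4.96e-10). Both DMSO libraries were far below both WT libraries, and the fold change ranged from -3.08 to -2.12 over the alternatives. The glycogen synthase *GSY2* had 85.5 and 82.8 rescaled reads in the DMSO libraries and 172 and 288 in WT (log2 fold change -1.39), and the nicotinamidase *PNC1* had 209.5 and 268 in the DMSO libraries and 461 and 549 in WT (log2 fold change -1.08). Targets of the heat shock factor Hsf1 were called lower in 7 of 18 and higher in 2, a higher count that was 0 without WT replicate 2 or with DESeq2 and 4 without WT replicate 1. The mitochondrial co-chaperone *MDJ1* led them with 171 and 179 rescaled reads in the DMSO libraries and 398 and 411 in WT (log2 fold change -1.20).

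Msn2 and Msn4 bind the stress response element, AGGGG or CCCCT on the other strand. The window from 300 to 51 bases before the start codon of *HSP12* (RefSeq R64, chrVI:106956-107205, plus strand) is shown because *HSP12* fell most among the stress genes, with the element in capitals.

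HSP12: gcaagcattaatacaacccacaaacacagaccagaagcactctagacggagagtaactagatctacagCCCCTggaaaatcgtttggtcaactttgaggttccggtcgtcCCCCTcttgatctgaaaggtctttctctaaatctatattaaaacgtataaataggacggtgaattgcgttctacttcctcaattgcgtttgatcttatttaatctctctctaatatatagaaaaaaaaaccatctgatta

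The element began 232 and 190 bases upstream. It was present in the same window of 22 of the 24 genes tested of the list (91.7%) and of 14 of the 15 called lower (93.3%), against 19.2% of all protein-coding genes. Over all genes tested, 19.9% of those called higher and 21.4% of those called lower held it, so that the called genes as a whole stood near the share of all genes.

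In purine synthesis 11 of 17 genes tested were called lower (64.7%) and 4 higher, with a median of -0.64. *ADE17* (chromosome XIII, 507502 to 509280, minus strand), which carries out the last steps to inosine monophosphate, had 553 and 629.5 rescaled reads in the DMSO libraries, against 1209 in WT replicate 1 and 3894 in WT replicate 2. Its log2 fold change was -1.88 (standard error 0.213, limma adjusted p = 3.29e-09). The size rested on a WT library, being -1.04 without WT replicate 2 and -2.72 without WT replicate 1. *ADE13*, the adenylosuccinate lyase, had 1350.0 and 1373 in the DMSO libraries and 2187 and 4065 in WT, with a log2 fold change of -1.13 that was -0.69 without WT replicate 2. *ADE2*, of an earlier step, had 167 and 168 rescaled reads in the DMSO libraries and 264 and 447 in WT, and *ADE57*, of another, had 1169 and 1162 in the DMSO libraries and 2013 and 2805 in WT. In each of these 4 genes WT replicate 2 was above WT replicate 1. Both DMSO libraries were below both, as in 35.1% of all genes tested. Without WT replicate 2 the count was 10 lower and 2 higher, and with DESeq2 9 lower and 0 higher.

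The factors Bas1, with Bas2, and Gcn4 act through sites with the core TGACTC or GAGTCA. The window from 300 to 51 bases before the start codon of *ADE17* (RefSeq R64, chrXIII:509331-509580, minus strand) is shown because *ADE17* fell most in this pathway, with the core in capitals.

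ADE17: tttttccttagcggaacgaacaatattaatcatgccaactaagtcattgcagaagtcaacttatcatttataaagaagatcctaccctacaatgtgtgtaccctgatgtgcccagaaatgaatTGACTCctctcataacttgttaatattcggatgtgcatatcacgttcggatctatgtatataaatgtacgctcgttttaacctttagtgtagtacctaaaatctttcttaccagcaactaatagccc

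The core began 177 bases upstream. It was found in the window of 11 of the 17 purine genes tested (64.7%) and in 9 of the 11 called lower (81.8%), against 6.81% of all protein-coding genes. Among all genes tested it was present in 5.68% of those called higher and 9.65% of those called lower.

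Calls in other biosynthetic pathways were fewer. In arginine metabolism 6 of 13 were called lower and 0 higher with limma, also at an unadjusted p under 0.05, and DESeq2 called 5 lower and 0 higher. *ARG4*, the argininosuccinate lyase, had 279 and 292 rescaled reads in the DMSO libraries and 539 and 540.4 in WT (log2 fold change -0.92), and *CAR1*, the arginase, had 188 and 212 in the DMSO libraries and 367 and 375 in WT (log2 fold change -0.89). *HIS4*, of histidine synthesis, had 1240.2 and 1360.3 in the DMSO libraries and 2088 and 2992 in WT (log2 fold change -0.94), in a list with 3 of 6 called lower. In pyrimidine metabolism 4 of 10 were called lower, led by *URA1*, and 2 higher. In the pathway to S-adenosylmethionine, *SAM2* had 149.7 and 105 in the DMSO libraries and 302 and 280.0 in WT (log2 fold change -1.21), in a list where 4 of 23 were called lower and 3 higher, a higher count that was 1 without either WT library. *MVD1*, of the mevalonate pathway, had 179.6 and 139 in the DMSO libraries and 403 and 368 in WT (log2 fold change -1.28), whereas *ERG6*, the sterol methyltransferase, had 1341 and 1342 in the DMSO libraries and 841 and 756 in WT (log2 fold change 0.75). Of 24 sterol genes 6 were called lower and 2 higher.

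Genes of metal and nutrient supply moved in both directions. Of 21 iron genes 8 were called lower and 2 higher, with a median of -0.22. The siderophore transporter *SIT1* had 163 and 209 rescaled reads in the DMSO libraries and 441 and 590.5 in WT (log2 fold change -1.46), while *HMX1*, the haem oxygenase, had 29.9 and 35.5 in the DMSO libraries and 15.1 and 14.2 in WT (log2 fold change 1.11, limma adjusted p = 0.00567), a call that DESeq2 did not make. Of 20 phosphate genes 8 were called lower and 3 higher, or 4 and 4 without WT replicate 2. The acid phosphatase *PHO5* had 137 and 173 in the DMSO libraries and 339 and 428 in WT (log2 fold change -1.30), and the transporter *PHO91* had 158 and 131 in the DMSO libraries and 79.2 and 70.8 in WT (log2 fold change 0.94). *PHO89*, a sodium-phosphate transporter, had 131 and 216 in the DMSO libraries and 206 and 486 in WT, groups that overlapped, and its call was lost without WT replicate 2 (log2 fold change -0.30, limma adjusted p = 0.259). Genes under nitrogen catabolite repression, which TORC1 is known to hold off on rich nitrogen, were called higher in 5 of 19 (26.3%) and lower in 2, with a median of 0.21. *DAL2*, the allantoicase, had 38.5 and 28.9 rescaled reads in the DMSO libraries and 7.78 and 4.36 in WT (log2 fold change 2.33, standard error 0.395), and *GAT1*, an activator of the class, had 15.7 and 19.7 in the DMSO libraries and 6.32 and 7.63 in WT (log2 fold change 1.23, limma adjusted p = 0.0217). DESeq2 did not call *GAT1*. *DAL2* and *GAT1* were at under 40 rescaled reads in every library, and without WT replicate 2 the list had 2 called higher. The 2 members called lower were *GLN1* and *PUT1*. *GLN1* had 1103 and 1245 rescaled reads in the DMSO libraries and 2121 and 2580 in WT. Its log2 fold change was -0.997 (limma adjusted p = 2.35e-09). *PUT1*, also at under 40 rescaled reads in every library, had a log2 fold change of -1.22 (limma adjusted p = 0.00205). DESeq2 did not call *PUT1*.

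Of the 15 FKBP and TORC1 genes tested 5 were called higher (33.3%) and 2 lower, *FPR1* itself and *SLM4*. The nuclear prolyl isomerases related to Fpr1 were the highest of them. *FPR3* had 736 and 678 rescaled reads in the DMSO libraries and 518 and 385 in WT (log2 fold change 0.66, standard error 0.127, limma adjusted p = 6.08e-05). *FPR4* had 905 and 938 in the DMSO libraries and 614 and 562 in WT (log2 fold change 0.65, standard error 0.114, limma adjusted p = 1.65e-05). In both genes the DMSO libraries lay above the WT libraries, as they did in 34.0% of all genes tested. Both calls were lost in the limma fit to all 10 libraries (adjusted p = 0.0802 and 0.063). *FPR2*, another FKBP gene, had 462 and 544 rescaled reads in the DMSO libraries and 510 and 619 in WT, groups that overlapped (log2 fold change -0.16, limma adjusted p = 0.31). *SLM4*, also known as *EGO3*, of the complex that tethers TORC1 to the vacuole, had 141 and 126 in the DMSO libraries and 226 and 218 in WT (log2 fold change -0.73). Without WT replicate 2 the list had 2 called higher and 2 lower.

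Elongation factor genes were called higher in 8 of 15 (53.3%) and lower in 1, with a median of 0.32. *DST1*, which encodes TFIIS, the factor that rescues backtracked polymerase, had 456 and 403 rescaled reads in the DMSO libraries and 269 and 241 in WT (log2 fold change 0.75, standard error 0.131, limma adjusted p = 1.43e-05). *ELF1*, which binds the polymerase beside Spt4 and Spt5, had 275 and 268 in the DMSO libraries and 169 and 166 in WT (log2 fold change 0.70). *SPT2*, a histone chaperone, had 103 and 118 in the DMSO libraries and 67.1 and 55.6 in WT (log2 fold change 0.84), and *PAF1*, of the complex of that name, had 221 and 201 in the DMSO libraries and 156 and 113 in WT (log2 fold change 0.66). The groups did not overlap in any of these 4, which were named because they were called. Both DMSO libraries lay above both WT libraries in 34.0% of all genes tested. With DESeq2 the count was 4 higher and 1 lower.

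Genes of cell separation, which daughter cells express after division to digest the septum, were called higher in 6 of 11 (54.5%) with limma, with a median of 0.45, and 5 were called higher with DESeq2. Those called lower numbered 0 with limma, with DESeq2 and at an unadjusted p under 0.05. The chitinase *CTS1* had 619 and 682 rescaled reads in the DMSO libraries and 348 and 357 in WT (log2 fold change 0.88, standard error 0.121). *SCW11*, a wall glucanase, had 366 and 348 in the DMSO libraries and 197 and 183 in WT (log2 fold change 0.91). A larger share of cells at this stage and more RNA per cell cannot be told apart in bulk RNA. In the pheromone pathway 5 of 9 were called higher (55.6%) and 0 lower with limma, and 4 higher and 0 lower with DESeq2, beside 1 lower at an unadjusted p under 0.05. *AGA1*, the anchor of the agglutinin, had 47.0 and 26.3 rescaled reads in the DMSO libraries and 12.6 and 9.80 in WT (log2 fold change 1.58, standard error 0.347). Of the G protein that signals mating, the subunit *STE4* had 1237 and 1347 in the DMSO libraries and 830.0 and 833 in WT, and the subunit *STE18* had 144 and 162 in the DMSO libraries and 95.7 and 91.5 in WT (log2 fold changes 0.63 and 0.70). The remaining subunit *GPA1* had 535 and 518 in the DMSO libraries and 519 and 502 in WT, groups that overlapped (log2 fold change 0.04, limma adjusted p = 0.80). Also not called were *KAR4* (0.05), *STE12* (-0.07) and *FAR1* (-0.26). In the *a*-specific list *MFA1*, for the *a* pheromone, was called higher and *BAR1*, the protease that degrades the opposite pheromone, lower.

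Other lists were called in smaller numbers of genes. Cell wall genes were called lower in 4 of 11 and higher in 0 with limma, and lower in 3 and higher in 0 with DESeq2, beside 1 higher at an unadjusted p under 0.05. *SED1*, a wall protein, had 191 and 225 rescaled reads in the DMSO libraries and 359 and 430.3 in WT (log2 fold change -0.92). In haem and oxygen genes 3 of 13 were called in each direction, with *COX5B*, the hypoxic form of a cytochrome oxidase subunit, at 108 and 110.4 in the DMSO libraries and 159 and 259 in WT (log2 fold change -0.89). Without WT replicate 1, 1 was called higher. Hexose transporters had 1 of 6 called, and thiamine genes 1 of 8. Drug efflux, copper and zinc, lysine, branched-chain amino acid, retrograde and phospholipid genes, of 10 to 13 tested each, had between 3 and 6 called.

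The 2 DMSO libraries were compared with each other without a test, since each strain had 1 library. Only *YNL134C* and *YOR121C* were 2-fold or more apart among 3214 genes. *YOR121C*, a dubious frame, had 84.1 rescaled reads in the Spt4-FRB library and 195 in the Spt5-FRB library, from 59 and 148 reads, against 215 and 231 in WT. The next genes higher in the Spt4-FRB library were *CAP2*, for a capping protein of actin, with 143 and 76.2 rescaled reads, and *STN1*, a telomere protein, with 144 and 80.2. In the other direction *YLR179C* had 602 in the Spt4-FRB library and 983 in the Spt5-FRB library, and *FSH1*, a hydrolase, had 459 and 714. Between the WT replicates *ADE17*, *PHO89* and *GCV1*, a subunit of glycine decarboxylase, were 2-fold or more apart. *GCV1* had 332 and 319 rescaled reads in the DMSO libraries, against 387 in WT replicate 1 and 794 in WT replicate 2.

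The medians by chromosome were narrowly spread. The median log2 fold change by chromosome ran from -0.07 over 64 genes on chromosome I to 0.13 over 114 genes on chromosome III. Medians differed more by level. In the lowest eighth of genes by mean rescaled reads (10.0 to 44.2) the median was 0.26, with 121 called higher and 26 lower, and in the highest eighth (902 to 39317) it was -0.06, with 103 higher and 197 lower. Genes listed only in the WT table, which were mostly low, did not enter these eighths. Across 4689 genes the log2 fold change and the mean level, which share the 4 libraries, had a Spearman rho of -0.17. With gene length rho was 0.02 over 4618 genes. The part played by sequencing depth, which was lower in both DMSO libraries than in both WT libraries, was not tested.

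A further set of libraries from the same backgrounds bears on which differences recur. The Spt4-FRB strain with rapamycin for 140 min (2 libraries) was set against *spt4Δ* (2 libraries of BY4741 RPB3-3xFLAG with *SPT4* deleted). By design both lack nuclear Spt4, and none of the 4 libraries enters the comparison of DMSO with WT, but the same 2 deposited tables and the same strain backgrounds separate them. There 291 of 4741 genes were called (6.14%), 175 higher (3.69%) and 116 lower (2.45%). Of these, 240 were also called in DMSO anchor-away over WT, in the same direction in all 240, which is 82.5% of the 291 and 13.2% of the 1820. They were 138 higher and 102 lower, and 69 were at least 2-fold apart in both, 32 higher and 37 lower. Over the 4688 genes tested in both the log2 fold changes had a Pearson r of 0.74, given as a description since genes are not replicates. Of the called genes 92.6% had the same sign in the second set, beside 65.5% of the 2869 not called.

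*FPR1*, the largest fall, had a log2 fold change of -6.60 in the second set and *RPL13A* one of -1.69. *YOR041C* had one of 3.52, *URA1* -2.07, *PIH1* 1.56 and *NOP2* 1.25, each called there with limma (largest adjusted p = 0.0085). On a scale common to all 10 libraries, *YOR041C* had between 4483 and 10747 rescaled reads in the 6 anchor-away libraries, rapamycin included, and between 330.0 and 929 in the 4 others. *URA1* had between 1074 and 2280 in the 6 and between 5002 and 8106 in the 4. *PIH1* had between 144 and 224 in the 6 and between 57.0 and 74.3 in the 4. Of the 24 largest changes 19 were also called in the second set, and in 17 the 6 anchor-away libraries lay apart from the 4 others, although the choice of these genes had set 4 of the 10 libraries apart. The 6 and the 4 lay apart in 116 of the 220 called genes with a 2-fold change, and in 33.8% of all called genes. Among the 4689 genes tested, called or not, the 6 lay above the 4 in 354 and below them in 408. The called genes, too, had been picked with 4 of the 10 libraries. *HSP12* was not among the 17 of the largest changes, since the 6 ran from 8.06 to 5544 rescaled reads and the 4 from 62.2 to 228. Nor was *YNL134C*, next to *FPR1*, where the 6 ran from 29.9 to 249 and the 4 from 138 to 222. Its log2 fold change in the second set was -0.55 (limma adjusted p = 0.313). The lists differed in this respect. Glycolysis had 5 of 19 called lower and a median of -0.56 in the second set, ribosomal proteins 17 of 135 called lower and a median of -0.39, and cell separation 2 of 11 called higher and a median of 0.45. *CTS1* and *SCW11*, named above for cell separation, were not called in that set (limma adjusted p = 0.117 and 0.479). On the common scale *SCW11* ran from 62.0 to 345 in the 6 and from 66.2 to 188 in the 4. The respiratory chain had a median of 0.10, Msn2/Msn4 genes one of -0.07 and ribosome biogenesis one of -0.15, with 0, 3 and 4 of their members called. The TCA cycle had a median of -0.20, with 1 of 15 called in each direction. Hsf1 targets had one of 0.17 with 3 of 18 called higher, and cell wall genes one of 0.46 with 1 of 11 called higher. Purine synthesis had a median of -0.47 with 4 of 17 called lower, and elongation factors one of 0.33 with 1 of 15 called higher. These differences between the sets were not tested.

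**Figure D5:**
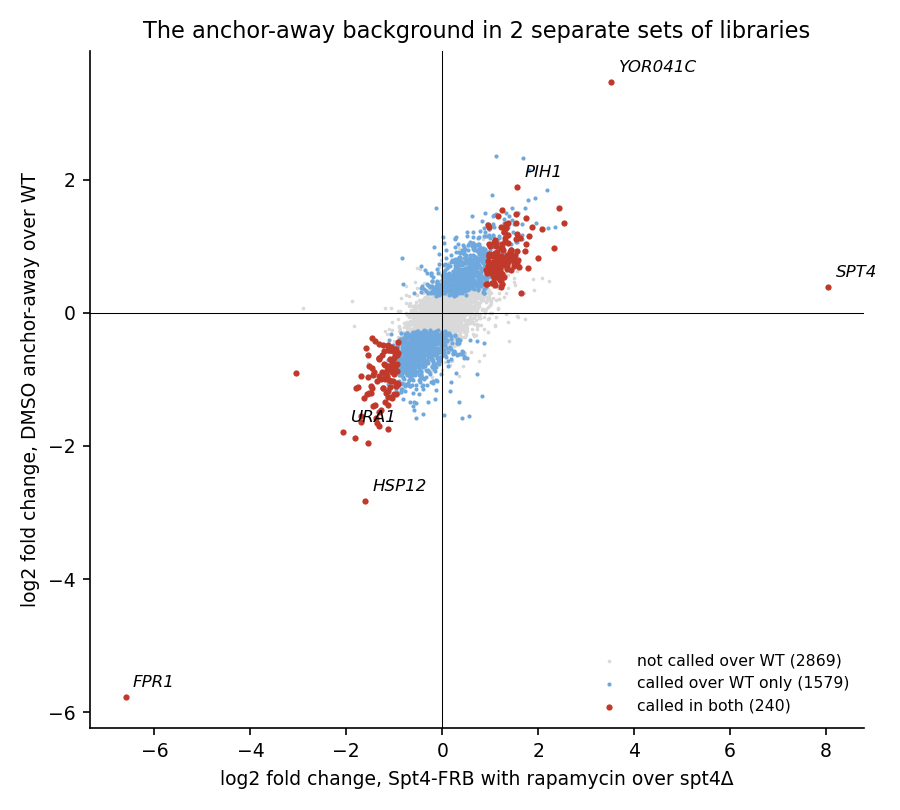
Log2 fold change of DMSO anchor-away over WT (vertical) and of Spt4-FRB with rapamycin over *spt4Δ* (horizontal) for the 4688 genes tested in both, with 240 called in both in red, 1579 called only over WT in pale blue and 2869 not called over WT in grey. The red points lie in the lower left and upper right, and *SPT4*, deleted on one side of the horizontal comparison, lies far to the right.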

How the data were processed

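RNA-seq was measured in 10 libraries. Per the labels and the study's methods, the authors trimmed reads with Trim Galore, aligned them with TopHat to R64 (sacCer3) of *S. cerevisiae* and ASM294v2 of *S. pombe*, and deposited DESeq2-normalised signal, which is reads per gene divided by a size factor. Versions, the counter and its strand setting are not given in the sources used here. Dividing each column by its lowest value above 0 gave whole reads for 100% of genes (tolerance 0.01), and the DMSO libraries gave identical reads in the 2 tables that hold them. Deposited columns of fold changes and p-values were not used.

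Tables were joined on gene identifier (4833 genes) and rescaled by median ratio. Genes averaging 10 or more were tested with limma 3.58.1 in R 4.3.3 on log2(rescaled reads + 1) with an intensity trend (two-sided), and p-values were adjusted by Benjamini-Hochberg over the 4689 genes and called at an adjusted p under 0.05. Fold changes are DMSO over WT on that scale, which understates the change of low genes. No set test was run. The script was tested on simulated data. Exact permutation of 2 against 2 libraries cannot go below p = 0.333. Depth was 1866670 to 6074207 reads per library, and counting error alone limits low genes. Alternatives were pseudocounts of 0.1 and 10, no filter, a mean of 100 or more, equal totals, TMM, edgeR 4.0.16 and DESeq2 1.42.0 on the recovered reads, all 10 libraries, and leaving out each library.

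Named genes were the strain construction genes, the 12 largest changes each way (mean of 50 in a group, groups apart), up to 4 called members of each of the 36 lists with 3 or more called, and the 5 genes furthest apart each way between the DMSO libraries. Others are named by position, or because a count of 5 or fewer singles them out, after their values were seen. The members and lists were chosen with earlier results of these data known. Names came from R64, which matched 4715 of the joined genes, and paralogues were compared with BLAST+ 2.17.0. Sequences are from RefSeq. Some genes that the rule names are not reported here.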

Additional observations from a re-analysis of the deposited data

Results flagged for a closer look

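A set of 4 named genes moved one way in both DMSO libraries over both WT libraries and the other way in both libraries of Spt4-FRB with rapamycin over both of *spt4Δ*. In each the difference between the sets was not tested. *MHT1*, a methyltransferase that makes methionine, had 79.8 and 81.5 rescaled reads in the DMSO libraries and 54.4 and 44.7 in WT (log2 fold change 0.70), against a log2 fold change of -0.45 in the rapamycin set. *SSA1*, a cytosolic Hsp70 that is 96.4% identical to *SSA2*, had 1444 and 1549.5 in the DMSO libraries and 2335 and 2114 in WT (log2 fold change -0.57), against 0.24. The wall protein genes *SED1* and *CWP2* had log2 fold changes of -0.92 and -0.65 in DMSO over WT, against 0.73 and 0.46. On the scale common to 10 libraries, *SED1* had 609.6 and 533 rescaled reads in Spt4-FRB with rapamycin and 269.7 and 449.6 in *spt4Δ*, and *CWP2* had 1534 and 1425 in Spt4-FRB with rapamycin and 856 and 1379 in *spt4Δ*. None of the 4 was called in the rapamycin set with limma (adjusted p from 0.181 to 0.803).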

How the results depend on the processing

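The 131 named genes called kept their direction in every alternative that tested them, and of the 99 tested in all 13 alternatives 59 stayed called in each. The number called was 1820, against 1049 with DESeq2 (1048 shared) and 349 with all 10 libraries (349 shared), and 1275 to 1535 when 1 library was left out. Genes with 2-fold calls numbered 220, against 122 with a pseudocount of 10, 99 at a mean of 100 or more, and 179 to 265 when 1 library was left out. The share within 2-fold was 97.4% with a pseudocount of 10, 94.4% without a filter, 96.9% at a mean of 100 or more, and 93.9% to 95.5% when 1 library was left out. The share higher among called genes was 41.4% at a mean of 100 or more, 60.9% with equal totals, 43.3% with DESeq2, 32.4% with all 10 libraries, and 43.0% to 46.5% when 1 library was left out. Genes 2-fold apart between the DMSO libraries numbered 0 at a mean of 500 or more, a limit that leaves fewer genes, where no test was run by any tool. The fold change of *RPL13B* turned to 0.078 with equal totals and ran from -0.16 to 0.12 when 1 library was left out. By the same omission *HIS3* ran from -0.86 to 0.074, *CAP2* from -0.54 to 0.35, *STN1* from -0.63 to 0.21 and *YLR179C* from -0.57 to 0.13. The cause was not tested except where fewer libraries or genes enter. No paired analysis was possible because the 2 DMSO libraries are different strains whose labels carry no replicate number. List counts without single WT libraries, the set with rapamycin, genes overlapping a snoRNA and frames without an R64 entry were chosen after seeing the data. Depth limits genes near 10 reads.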
